A study of Mus musculus with 8 samples.

Results

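The leukocyte integrins described here are 10 integrin chains: the alpha chains Itga2b, Itga4, Itgae, Itgal, Itgam and Itgax and the beta chains Itgb1, Itgb2, Itgb3 and Itgb7. They were found by gene symbol among the 24506 genes of the count table, and all 10 were measured. The chains were chosen by name with the expression values and fold changes of these same libraries already known, so the counts and p-values below describe these libraries and are not independent evidence about the list. RNA was sequenced in bulk from 8 libraries of mouse T-cell progenitors, in 4 groups of 2. Early cells were sorted as CD25+ and Bcl11b-mCherry negative, before commitment to the T lineage, and late cells as CD25+ and mCherry positive, after it (the series text calls the late cells mCherry+ and, in the same phrase, reporter negative; the titles call them Bcl11b positive). In each gate, cells carried either control guides (early control, late control) or 3 guides against Stat5a and 3 against Stat5b (early sgStat5, late sgStat5). STAT5A and STAT5B are the transcription factors that carry the IL-7 signal. All groups, controls included, came from bone-marrow progenitors of B6 mice that carried a Cas9 transgene, a Bcl2 transgene and the Bcl11b-mCherry reporter. These cells were held overnight with IL-7, Flt3 ligand and SCF, infected with guide retrovirus, and grown for 6 days on OP9-DLL1, stromal cells that display a Notch ligand. The medium held 10 ng/ml of IL-7 and 10 ng/ml of Flt3 ligand. The promoters of the transgenes, the age and pooling of the mice, the target of the control guides and the share of edited cells are not given in the sources used here.

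Integrins are surface receptors made of 1 alpha and 1 beta chain, and each chain reaches the surface mainly with its partner. Itgb2 pairs with Itgal (LFA-1, which binds ICAM ligands), Itgam (Mac-1) and Itgax (CD11c, a marker of dendritic cells). Itga4 pairs with Itgb1 (VLA-4, which binds VCAM-1 and fibronectin) and with Itgb7 (the gut-homing receptor of MAdCAM-1), Itgae pairs with Itgb7 (CD103, which binds E-cadherin), and Itga2b pairs with Itgb3 (the platelet fibrinogen receptor, CD41, which early haematopoietic progenitors also carry). In the thymus, integrins hold progenitors to stroma while they pass through the early stages.

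The chains lie on 6 chromosomes of the mm10 genome, in the coordinates of the RefSeq transcripts that the count table uses. Chromosome 7 holds 3 chains that pair with Itgb2: Itgal (chr7:127296260-127335137, plus strand), Itgam (chr7:128062640-128118491, plus) and its downstream neighbour Itgax (chr7:128129568-128150657, plus). Chromosome 11 holds Itgae (chr11:73090583-73147449, plus), Itga2b (chr11:102453297-102469883, minus) and Itgb3 (chr11:104608000-104670471, plus). The others are Itga4 (chr2:79255426-79333114, plus), Itgb1 (chr8:128685654-128733579, plus), Itgb2 (chr10:77530348-77565674, plus) and Itgb7 (chr15:102215995-102231935, minus). Counts are reads over the exons of these transcripts.

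Total counts ran from 22146490 to 31209177 per library. Stat5a was at 238 to 258 CPM (counts scaled to a common library size) in the 4 control libraries and at 105 to 116 in the 4 sgStat5 libraries, and Stat5b at 249 to 280 against 133 to 154, so both targeted RNAs were lower in the libraries labelled sgStat5. RNA of an edited gene does not measure its protein. All 16 T-progenitor markers were above 0 in every library, down to 0.22 CPM for Cd2. Il2ra, which encodes the sorting marker CD25, was lower with Stat5 guides. It was at 3152 and 2887 CPM in early control and 1980 and 2155 in early sgStat5. In the late gate it was at 2948 and 3075 against 1374 and 1886. The late log2 fold change was -0.89 (SE 0.14, edgeR quasi-likelihood test, adjusted p = 0.0352), and the early one had an adjusted p of 0.339. Il7r was higher with Stat5 guides, by 1.58 on the log2 scale in the early gate (SE 0.15, adjusted p = 0.0163) and 1.53 in the late gate (SE 0.15, adjusted p = 0.00596). No other marker of this list had an adjusted p under 0.05 between guides in that fit. With the replicate number added to the fit, 4 of the 16 did early and 8 late, beside 2.33% and 8.22% of all genes tested. The part of these markers in the integrin values was not tested. Bcl11b was at 45.6 to 132 CPM in the early libraries and at 219 to 797 in the late ones. Genes of the stromal list varied with the replicate number, in both directions. Fn1, the fibronectin gene, was at 0 to 40.6 CPM in the replicate 1 libraries and at 56.6 to 136 in the replicate 2 libraries. Pdgfrb went the other way, at 94.0 to 110 CPM in replicate 1 and 69.4 to 85.6 in replicate 2, and Thy1 was higher in replicate 1 within each group.

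Compared per transcript length, as FPKM (fragments per kilobase, scaled to library size), the chains fell into an order that ran from abundant to barely detected. Itga4 was the highest by its median over the 8 libraries, at 89.0 FPKM (range 59.7 to 126), followed by Itgal at 71.7 (64.2 to 78.7). Itgb7 had a median of 44.8 FPKM, Itgb3 of 42.9, Itgb1 of 34.2, Itga2b of 26.6 and Itgb2 of 20.2. The 3 lowest were Itgae at 3.21 FPKM, Itgax at 1.80 and Itgam at 0.531. Itgal exceeded Itgb7, and Itgb2 exceeded Itgae, in 8 of 8 libraries. The other neighbours in this order were not separated in every library: Itga4 exceeded Itgal in 6, Itgb7 exceeded Itgb3 in 5, Itgb3 exceeded Itgb1 in 5, Itgb1 exceeded Itga2b in 4, Itga2b exceeded Itgb2 in 4, Itgae exceeded Itgax in 5 and Itgax exceeded Itgam in 7 of 8. Itgb1 and Itgal varied least between libraries, by 1.16-fold and 1.23-fold from lowest to highest FPKM, and Itga2b most, by 64.5-fold.

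**Figure D1:**
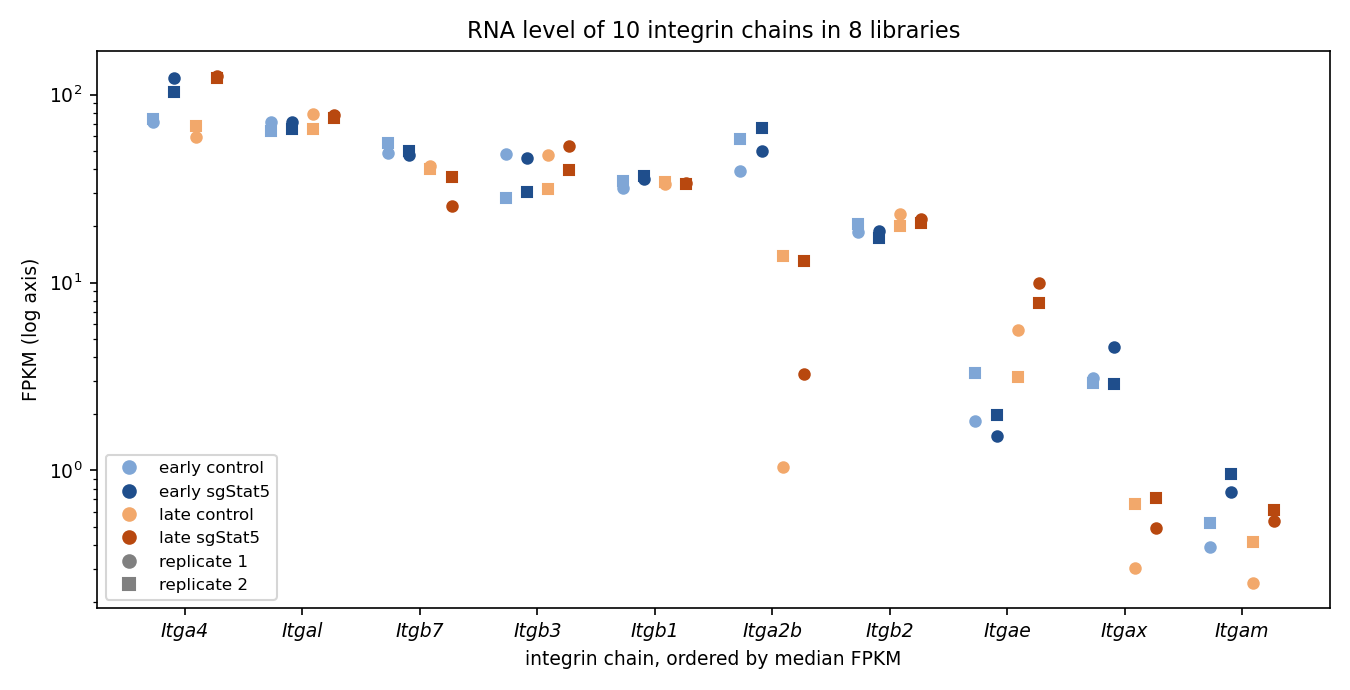
FPKM (log axis) of the 10 integrin chains, ordered by median, with 1 point per library, colour for the group and shape for the replicate number. Itga4 and, at a low level, Itgam separate by guide, with all sgStat5 points above all control points. Itga2b, Itgax and Itgb7 separate by gate, with all late points below all early points. The share of all genes that separate in these ways was not counted.

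Itga4 was called between guides in the late gate (called means an adjusted p under 0.05 in a fit without the replicate number), where 1.71% of all genes tested were called. Its level per library was 996 and 1001 CPM with control guides and 1644 and 1440 with Stat5 guides in the early gate, and 820 and 937 against 1649 and 1631 in the late gate. All 4 sgStat5 libraries lay above all 4 control libraries. In the late gate Itga4 rose by a log2 fold change of 0.90 (SE 0.10, edgeR quasi-likelihood test, Benjamini-Hochberg adjusted p = 0.00755), which is 2.01-fold between the replicate 1 libraries and 1.74-fold between the replicate 2 libraries. In the early gate the log2 fold change was 0.63 (SE 0.10, adjusted p = 0.0779), and with the replicate number as a block it passed, at 0.63 (SE 0.08, adjusted p = 0.00466). The late call was lost without late sgStat5 replicate 1 (adjusted p = 0.0591), and the blocked early call without early control replicate 1 (adjusted p = 0.0737). The difference between the late and the early effect was 0.27 (SE 0.13, adjusted p = 0.9998) and did not pass. In bulk RNA, more RNA per cell and more cells of a kind that makes it cannot be told apart.

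Itga4 shares 1124 exon bases with Cerkl, a gene on the opposite strand, and the counting is not stated to use strand, so reads there cannot be told apart. Cerkl was counted at 17.2 to 38.0 CPM, against 820 to 1649 for Itga4. Stromal markers, which include Fn1 and Thy1 (made by T cells too), summed to 749 and 991 CPM with control guides and 418 and 678 with Stat5 guides in the early gate, and 1403 and 1709 against 1184 and 1341 in the late gate, with 2 to 8 of 19 genes at 0. Most of that difference between guides was Thy1: without it the sums overlapped, at 166 and 495 CPM with control guides and 127 and 426 with Stat5 guides in the early gate, and 277 and 805 against 320 and 743 in the late gate. With the block Thy1 and Timp3 fell with Stat5 guides in both gates, and no other of the 17 tested genes of the list was called between guides. Of all genes, 2.33% were called early and 8.22% late in that fit. Without the block Timp3 was also called, at -2.40 (SE 0.30, adjusted p = 0.0382) early and -3.52 (SE 0.31, adjusted p = 0.00451) late. Thy1 was called without it between gates in sgStat5 cells, at 1.43 (SE 0.20, adjusted p = 0.0482). Marker sums, here and below, are given as the lower and the higher library of each group. Their part in the Itga4 values was not tested.

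The upstream sequence of Itga4 is shown because this chain was called between guides. It is the 250 bases before the RefSeq start on GRCm38.p6 (chr2:79255176-79255425, plus strand), 5′ to 3′, and the capitals mark the RUNX-type letters TGTGGT or their reverse complement ACCACA, 60 to 55 bases before the start.
Itga4: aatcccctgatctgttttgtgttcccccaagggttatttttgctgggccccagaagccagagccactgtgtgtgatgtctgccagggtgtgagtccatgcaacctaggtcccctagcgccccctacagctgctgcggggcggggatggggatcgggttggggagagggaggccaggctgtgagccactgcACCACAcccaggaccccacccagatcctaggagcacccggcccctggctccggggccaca

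Among 32851 such windows of all RefSeq promoters, 14.0% hold TGTGGT on either strand. The STAT-type letters TTCNNNGAA, with N for any base, were in none of the 6 integrin windows that the RefSeq table holds (Itga2b, Itga4, Itgam, Itgax, Itgb1 and Itgb7) and in 7.02% of all windows. The GATA-type letters AGATAA were in the Itgax window and in 9.99% of all, and the ETS-type letters GAGGAA in those of Itga2b, Itgam and Itgb1 and in 23.3% of all. TGTGGT was in the Itga4 window and in no other of the 6. These are letter matches within 250 bases and not measured sites.

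The beta chains that pair with Itga4 are Itgb1 and Itgb7. Itgb1, the VLA-4 beta chain, was at 188 and 200 CPM with control guides and 202 and 218 with Stat5 guides in the early gate, and 197 and 202 against 190 and 190 in the late gate. The sgStat5 libraries lay above control in the early gate and below it in the late gate, by small steps: the log2 differences were 0.11 (SE 0.08, adjusted p = 0.947) and -0.07 (SE 0.08, adjusted p = 0.815). The difference between them, -0.18 (SE 0.11, adjusted p = 0.9998), did not pass either. Itgb7, the other partner, was at 185 and 201 CPM with control guides and 174 and 190 with Stat5 guides in the early gate, and 156 and 150 against 90.6 and 131 in the late gate. Its lowest libraries were both late sgStat5. The log2 fold change of sgStat5 against control in the late gate was -0.46 (SE 0.17, adjusted p = 0.314). With the replicate block it was -0.48 (SE 0.12, adjusted p = 0.0489), a call that was lost on leaving out 5 of the 8 libraries in turn: both early control libraries, both late control libraries and late sgStat5 replicate 1 (adjusted p from 0.0604 to 0.359).

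Within each library the FPKM ratio of Itga4 to Itgb1 was 1.78 to 2.25 in the 4 control libraries and 2.81 to 3.69 in the 4 sgStat5 libraries. The ratio of Itga4 to Itgb7 was 1.35 to 1.69 in control, 2.06 and 2.57 in early sgStat5, and 3.36 and 4.94 in late sgStat5. Both ratios thus separated by guide, as Itga4 itself did, and they are ratios of RNA, not of surface receptor.

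**Figure D2:**
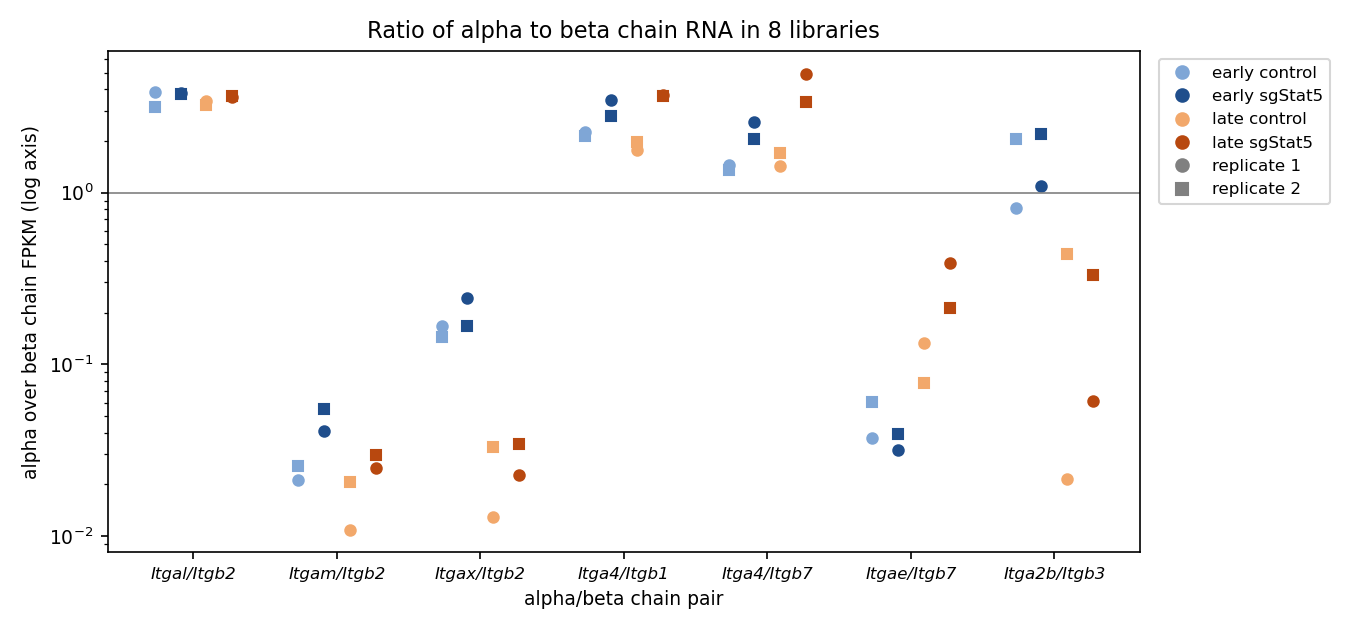
Ratio of alpha to beta chain FPKM (log axis) for 7 known heterodimers in each library, with 1 point per library and a line at a ratio of 1. The Itgal to Itgb2 ratio stays between 3.15 and 3.86, the Itga4 ratios are higher in sgStat5 libraries, and the Itga2b to Itgb3 and Itgax to Itgb2 ratios are lower in late libraries.

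Itgae, the CD103 alpha chain, had both of its highest libraries in late sgStat5. It was at 9.96 and 17.3 CPM with control guides and 7.91 and 10.7 with Stat5 guides in the early gate, and 29.8 and 16.8 against 50.6 and 40.2 in the late gate. The control libraries of the 2 gates overlapped and the sgStat5 libraries did not. From the early to the late gate Itgae rose in sgStat5 cells by a log2 fold change of 2.29 (SE 0.37, adjusted p = 0.0486), 6.40-fold in replicate 1 and 3.76-fold in replicate 2. In control cells the same step was 0.77 (SE 0.35, adjusted p = 0.363). The difference between these steps, which is also that between the guide effects in the 2 gates, was 1.52 (SE 0.50) and did not pass over all genes (adjusted p = 0.9998). The rise in sgStat5 cells was lost on leaving out 6 of the 8 libraries in turn, namely every early control, early sgStat5 or late sgStat5 library (adjusted p from 0.0762 to 0.280). With the replicate block it was called whichever library was left out (highest adjusted p = 0.0260).

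Beside these values, markers of NK and innate lymphoid cells, some of which carry CD103, summed to 1736 and 2142 CPM with control guides and 1788 and 1999 with Stat5 guides in the early gate, and 1077 and 1741 against 1889 and 2239 in the late gate. Of these 15 genes, 1 to 4 were at 0. Gzma, which encodes granzyme A, made up most of the sum. Without it the sums were 525 and 624 CPM with control guides and 429 and 485 with Stat5 guides in the early gate, and 203 and 332 against 181 and 269 in the late gate. With the block, Gzmb, Klrd1, Klrk1 and Zbtb16 fell from the early to the late gate in both arms, and Gzma rose in sgStat5 cells (log2 fold change 0.35, SE 0.11, adjusted p = 0.0477). Between guides in the late gate Gzma was higher with Stat5 guides, at 0.72 with the block (SE 0.11, adjusted p = 0.00477) and 0.69 without it (SE 0.22, adjusted p = 0.265). No other of these genes was called between guides in either fit. Their part in the Itgae values was not tested. The FPKM ratio of Itgae to its partner Itgb7 was 0.0317 to 0.0600 in the early libraries, and in the late ones 0.134 and 0.0778 with control guides and 0.389 and 0.213 with Stat5 guides. Itgb7 was the more abundant chain per length in all 8 libraries.

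Itgax, the CD11c alpha chain, was low throughout and lower after commitment in both guide arms. It was at 17.7 and 16.1 CPM with control guides and 24.9 and 16.4 with Stat5 guides in the early gate, and 1.68 and 3.71 against 2.65 and 3.84 in the late gate. Every late library lay below every early library. In sgStat5 cells Itgax fell by 2.66 on the log2 scale (SE 0.41, adjusted p = 0.0486), which is 9.39-fold in replicate 1 and 4.27-fold in replicate 2. In control cells the log2 fold change was -2.64 (SE 0.41, adjusted p = 0.123), and with the replicate block it was called, at -2.65 (SE 0.37, adjusted p = 0.00450). The call in sgStat5 cells was lost on leaving out 6 of the 8 libraries in turn, the early control, early sgStat5 and late sgStat5 ones (adjusted p from 0.0795 to 0.301). With the block both arms kept the call whichever library was left out (highest adjusted p = 0.0472 in control and 0.0260 in sgStat5).

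The summed markers of myeloid and dendritic cells were lower in the late gate, as Itgax was, while single markers went both ways. The 25 genes summed to 533 and 564 CPM with control guides and 590 and 725 with Stat5 guides in the early gate, and 258 and 357 against 302 and 383 in the late gate, with 1 to 6 at 0. Ccr2 had the highest mean of them, at 115 to 366 CPM. Without it the sums were 313 and 351 CPM with control guides and 339 and 359 with Stat5 guides in the early gate. In the late gate they were 142 and 204 against 152 and 201. With the block, 8 of the 21 tested fell and 1 rose between gates in control cells, where 4.3% of all genes fell and 6.64% rose. In sgStat5 cells 9 fell and 3 rose, where 11.5% of all genes fell and 11.3% rose. Those that rose were Ly6c2 in both arms, and Irf8, a transcription factor of dendritic cells, and Csf2ra in sgStat5 cells. Without the block, Irf8 was also called higher with Stat5 guides in the late gate (log2 fold change 1.496, SE 0.236, adjusted p = 0.0329). Its level there was 8.85 and 7.32 CPM with control guides and 21.3 and 24.3 with Stat5 guides. With the block Irf8 was again called higher there and Cd33 lower (-0.835, SE 0.188, adjusted p = 0.0277). No other tested gene of this list was called between guides in either gate or fit. Tyrobp, an adaptor of myeloid and NK receptors, was at 52.4 to 72.6 CPM in the early libraries and at 2.22 to 12.8 in the late ones. Fcer1g was at 61.4 to 113 CPM in the early libraries and 13.3 to 49.9 in the late ones, and Cst3 at 45.9 to 65.8 over all libraries. Mpo was at 17.8 to 55.8 CPM early and 0.0383 to 6.20 late. Lyz2 and Csf1r, genes of the myeloid lineage, were at 3.18 and 3.59 CPM or less in every library, and Siglech, a plasmacytoid dendritic cell marker, at 0.135 CPM or less. The part of such cells in the Itgax values was not tested. Itgax, Itga2b and Itgb7 separated by gate, and the share of all genes that do so over all libraries was not counted. The window of Itgb7, which holds none of the motif letters searched, is not shown. The 250 bases upstream of Itgax are shown here (GRCm38.p6, chr7:128129300-128129549, plus strand). The RefSeq start lies 18 bases before the transcript start in the count table. The capitals mark AGATAA, 217 to 212 bases before the RefSeq start.
Itgax: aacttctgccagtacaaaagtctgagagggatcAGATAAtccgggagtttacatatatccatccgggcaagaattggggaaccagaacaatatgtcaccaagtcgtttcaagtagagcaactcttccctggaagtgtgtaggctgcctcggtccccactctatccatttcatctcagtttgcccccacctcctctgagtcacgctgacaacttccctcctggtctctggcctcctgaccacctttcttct

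Itga2b, the CD41 alpha chain, had the widest range of the 10. It was at 191 and 271 CPM with control guides and 235 and 323 with Stat5 guides in the early gate, and 4.94 and 66.4 against 14.9 and 60.3 in the late gate. Every late library lay below every early library, and in both late groups replicate 1 was far below replicate 2. Within the replicate numbers, the late control libraries were 38.6-fold and 4.08-fold lower than the early ones, and the late sgStat5 libraries 15.7-fold and 5.35-fold lower, for replicates 1 and 2 in turn. Without the block the log2 fold changes were -2.69 (SE 1.06, adjusted p = 0.315) in control and -2.88 (SE 1.07, adjusted p = 0.167) in sgStat5. With the replicate block Itga2b fell in both arms, at -3.20 (SE 0.63, adjusted p = 0.0162) and -3.22 (SE 0.62, adjusted p = 0.00746). The blocked control call was lost without early control replicate 1 (adjusted p = 0.113) or late control replicate 1 (0.0507), and the blocked sgStat5 call without late sgStat5 replicate 1 (0.0852).

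The summed markers of megakaryocytes, erythroid cells and mast cells were also lower in the late gate. The 21 genes summed to 1131 and 1409 CPM with control guides and 1488 and 1996 with Stat5 guides in the early gate, and 540 and 629 against 773 and 812 in the late gate, with 4 to 11 at 0. Most of this sum came from Kit and Cpa3, which early progenitors also express, and from Hbb-bt, an adult globin gene, at 399 and 454 CPM with control guides and 762 and 659 with Stat5 guides in the early gate, and 20.4 and 130 against 54.7 and 168 in the late gate. Of the platelet genes, Treml1 was at 0 in all libraries, and Pf4, Ppbp and Gp9 did not pass 0.185 CPM in any. Gp1bb was at 0 to 0.72 CPM, and Gp1ba was at 0.35 to 2.22 in the early libraries and 1.11 to 1.99 in the late ones. Gata1, an erythroid and megakaryocyte factor, was at 0.26 to 1.35 CPM in the early libraries and at 1.06 to 2.72 in the late ones, higher late in all 4 pairs of libraries. The part of other cells in the Itga2b values was not tested. Between the guides Itga2b did not pass in either gate, with log2 fold changes of 0.27 (SE 0.99, adjusted p = 1) and 0.08 (SE 1.02, adjusted p = 0.991).

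The window upstream of Itga2b, which also separated by gate, is shown too (GRCm38.p6, chr11:102469884-102470133, minus strand, read 5′ to 3′ on the gene's strand). The capitals mark GAGGAA, 126 to 121 and 44 to 39 bases before the start.
Itga2b: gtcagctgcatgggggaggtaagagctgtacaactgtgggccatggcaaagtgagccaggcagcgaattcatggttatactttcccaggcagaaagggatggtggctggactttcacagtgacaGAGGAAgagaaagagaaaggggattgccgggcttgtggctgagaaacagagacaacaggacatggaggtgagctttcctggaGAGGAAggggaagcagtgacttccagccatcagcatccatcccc

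Itgb3, the beta chain that pairs with Itga2b, was at 394 and 222 CPM with control guides and 363 and 248 with Stat5 guides in the early gate, and 386 and 256 against 413 and 309 in the late gate. Replicate 1 exceeded replicate 2 in all 4 groups, by 1.34-fold to 1.77-fold, and the groups overlapped in all 4 comparisons of level. The largest log2 fold change of Itgb3 was 0.24 (SE 0.33, adjusted p = 0.692), late against early in sgStat5 cells. The FPKM ratio of Itga2b to Itgb3 was 0.819 to 2.20 in the early libraries and 0.0216 to 0.438 in the late ones.

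**Figure D3:**
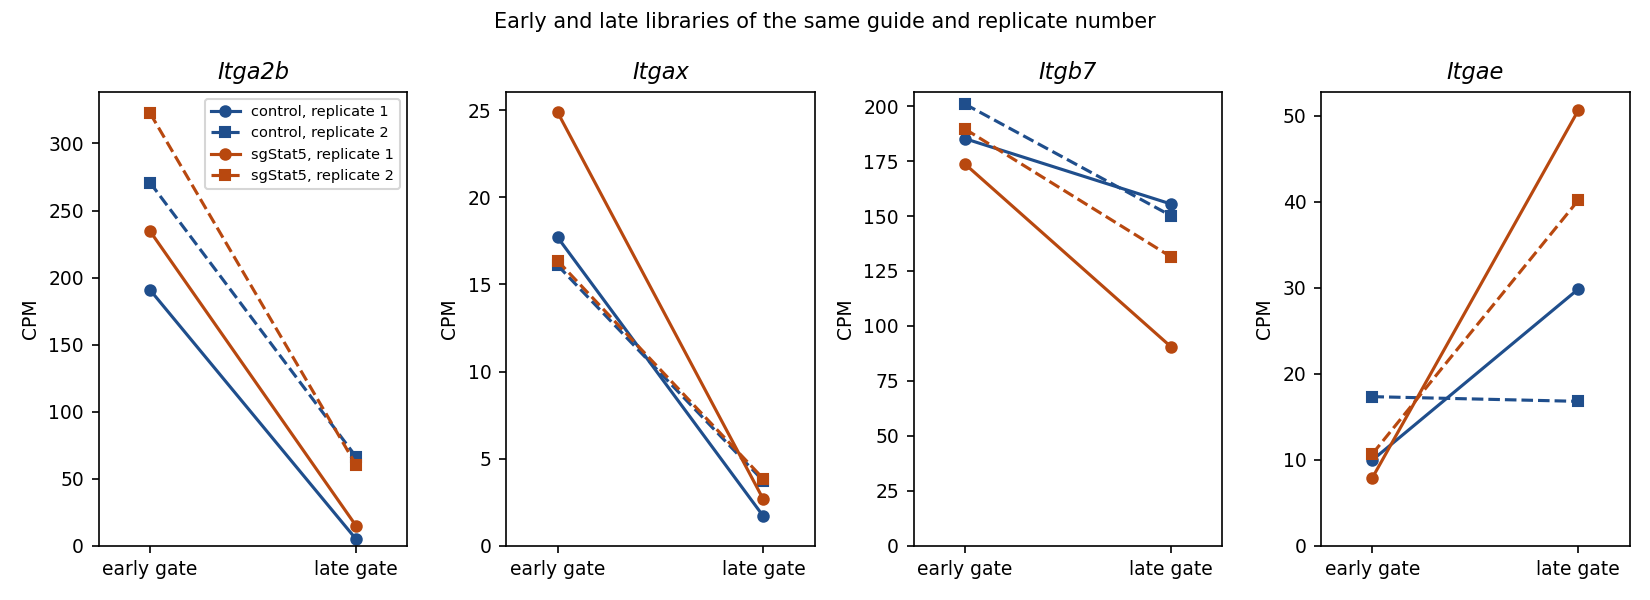
CPM of Itga2b, Itgax, Itgb7 and Itgae in early and late libraries, with a line joining the libraries of the same guide and replicate number. All 4 lines descend for Itga2b, Itgax and Itgb7, and for Itgae 3 of 4 ascend while that of control replicate 2 runs from 17.3 to 16.8.

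Itgb7 was lower in the late gate along every line, and every late library lay below every early library. In sgStat5 cells the log2 fold change was -0.71 (SE 0.17, adjusted p = 0.0816). With the block it was called, at -0.72 (SE 0.12, adjusted p = 0.00453), and remained so whichever library was left out (highest adjusted p = 0.0360). In control cells it was -0.34 (SE 0.16, adjusted p = 0.385), and the block did not change that call.

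Itgal and Itgb2, the chains of LFA-1, had small log2 fold changes in every comparison. Itgal was at 458 to 530 CPM with control guides and 481 to 507 with Stat5 guides in the early gate, and 477 to 572 against 530 to 543 in the late gate, and its log2 fold changes lay between 0.00 and 0.12 (SE 0.11 for the guide and gate comparisons). Itgb2 was at 75.3 and 79.8 CPM with control guides and 73.0 and 69.9 with Stat5 guides in the early gate, and 92.2 and 80.4 against 82.7 and 79.5 in the late gate. Its largest log2 fold change was 0.18 (SE 0.10, adjusted p = 0.321), late against early in sgStat5 cells. The Itgal to Itgb2 ratio, per length, stayed at 3.15 to 3.86.

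Itgam, the Mac-1 alpha chain, had few reads, 43 to 170 per library. It was at 2.60 and 3.34 CPM with control guides and 4.90 and 6.28 with Stat5 guides in the early gate, and 1.65 and 2.71 against 3.36 and 3.87 in the late gate. All 4 sgStat5 libraries lay above all 4 control libraries. The log2 fold changes were 0.91 (SE 0.38, adjusted p = 0.758) and 0.73 (SE 0.38, adjusted p = 0.510), and neither passed. Itgam shares 3450 exon bases on the same strand with Gm49368, which has no row of its own in the count table, so reads of the 2 genes cannot be told apart. Its partner Itgb2 was 18.2-fold to 91.5-fold higher per length.

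Counted over the list, 0 of the 10 chains were called between guides in the early gate, where edgeR called 0.269% of the 13775 genes tested. In the late gate 1 was called (Itga4), against 1.71% of all genes, and for the difference between these effects 0 were called, as for all genes (0%). Between gates, 0 were called in control cells, against 0.0145% of all genes, and 2 in sgStat5 cells (Itgae and Itgax), against 0.973%. At an unadjusted p under 0.05 the chains numbered 2, 3, 1, 2 and 4 in these 5 comparisons, beside 6.44%, 12.4%, 2.19%, 14.9% and 24% of all genes. DESeq2 called 1, 1, 0, 1 and 3 chains, beside 1.84%, 4.86%, 0.0145%, 5.17% and 12% of the genes it gave an adjusted p. The comparisons share libraries, so their counts are not independent. With the replicate block the counts were 1, 2, 0, 2 and 4, beside shares of all genes called of 2.33%, 8.22%, 0%, 10.9% and 22.8%.

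Chains whose groups did not overlap numbered 4 of 10 between guides in the early gate, where 38.1% of all genes had such groups, and 5 of 10 in the late gate, against 38.9%. Between gates they numbered 5 of 10 in control cells, against 48.8% of genes, and 8 of 10 in sgStat5 cells, against 56.2%. With 10 chains, no count is read as particular to the list. The median log2 fold change of the 10 chains was 0.06, 0.12, 0.0028, -0.07 and -0.03 in the order of comparisons above, beside -0.00012, -0.02, -0.02, 0.03 and 0.03 for all genes tested.

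**Figure D4:**
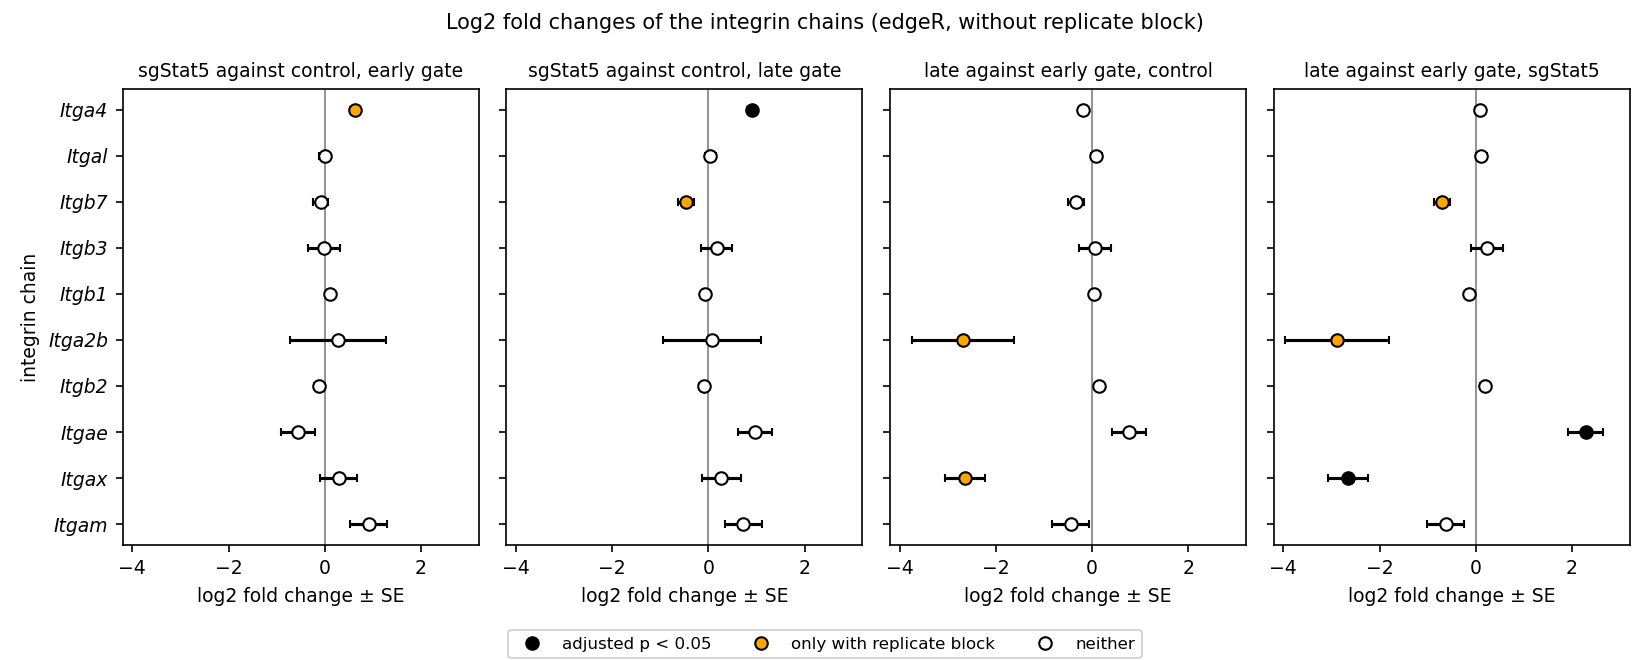
Log2 fold change with its standard error (horizontal bars) for each chain in 4 comparisons, without the replicate block. Filled points passed an adjusted p of 0.05, orange points passed only with the replicate block and open points passed in neither fit. Itga4 lies to the right of 0 in both guide comparisons, and Itga2b and Itgax lie to the left of -2 in both gate comparisons.

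Other genes of the integrin system were taken from 4 lists. Of 17 other integrin chains, 14 were tested, and Itgav, the alpha chain of the vitronectin receptor and a partner of Itgb3, fell in sgStat5 cells of the late gate. It was at 58.8 and 51.6 CPM with control guides and 31.3 and 33.6 with Stat5 guides, a log2 fold change of -0.77 (SE 0.12, adjusted p = 0.0352), and the call was lost whichever of the 8 libraries was left out (adjusted p from 0.0701 to 0.224). No other chain of that list passed in any comparison. With the block, Itga9 (higher) and Itga6 (lower) were called between guides in the early gate, Itga6 and Itgav (lower) in the late gate, Itgb4 (higher) between gates in both arms and Itga6 (lower) between gates in sgStat5 cells. These blocked names, those below and the single markers named above were chosen after their values were seen.

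Of 19 integrin ligands, 10 were tested, and 1 was called. Icam1, a ligand of Itgal with Itgb2, rose in sgStat5 cells of the late gate, from 25.5 and 24.4 CPM to 56.4 and 49.5, a log2 fold change of 1.08 (SE 0.14, adjusted p = 0.0160). The call was lost without any of the 4 late libraries (adjusted p from 0.0530 to 0.116). With the block, Cdh1 (E-cadherin, the ligand of CD103) and Thbs1 also rose between gates in both arms. The ligands Vcam1 and Madcam1 were low: Vcam1 was at 0 to 8.84 CPM and Madcam1 at 0 to 0.354.

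Of 47 genes that activate integrins or link them to the cytoskeleton, 45 were tested. They include talins, kindlins and the exchange factors that load the GTPase RAP1. Rap1gap2, a GTPase activator that switches RAP1 off, rose in the late gate from 2.45 and 4.55 CPM in control to 25.9 and 14.5 in sgStat5 (log2 fold change 2.52, SE 0.44, adjusted p = 0.0438). Rasgrp2, a RAP1 exchange factor, fell there from 111 and 124 CPM to 59.1 and 65.9 (log2 fold change -0.91, SE 0.13, adjusted p = 0.0228). Rasgrp3 fell with Stat5 guides in the early gate, from 102 and 82 reads to 2 and 6 (log2 fold change -4.34, SE 0.57, adjusted p = 0.0427), and in sgStat5 cells rose from the early to the late gate (3.85, SE 0.56, adjusted p = 0.0486). On leaving out each library in turn, those of Rap1gap2 and of Rasgrp3 between guides were lost in 8 of 8 cases, and those of Rasgrp2 and of Rasgrp3 between gates in 6 of 8. With the block the list had 2, 8, 0, 12 and 15 calls in the 5 comparisons, among 45 genes and beside the blocked shares of all genes given above.

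Of 23 factors known to act on integrin genes, all 23 were tested and 0 passed without the block in any comparison. With the block, Tgfb1 was lower in sgStat5 cells in both gates, Gata3, Myb and Zeb2 were higher in the late gate, and 7 and 10 of the 23 factors were called between gates in control and sgStat5 cells, beside 10.9% and 22.8% of all genes. Spi1, which encodes PU.1, was at 30.7 and 47.2 CPM with control guides and 49.3 and 50.5 with Stat5 guides in the early gate, and 7.54 and 16.9 against 11.7 and 25.3 in the late gate. Its blocked log2 fold change between gates was -1.72 (SE 0.25, adjusted p = 0.00533) in control and -1.55 (SE 0.25, adjusted p = 0.00347) in sgStat5. Of the factors called between gates, 4 rose and 3 fell in control, and 7 rose and 3 fell in sgStat5. Those that fell were Spi1, Gfi1b and Tgfb1 in both arms. The blocked log2 fold changes of Gfi1b were -3.12 (SE 0.79, adjusted p = 0.0387) in control and -3.61 (SE 0.79, adjusted p = 0.0123) in sgStat5. Runx1, Myb, Gfi1 and Tgfbr1 rose in both arms. The part of these factors in the integrin values was not tested.

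The genes most like each called chain were found by the smallest root-mean-square (RMS) difference between mean-centred log2 CPM profiles over the 8 libraries. For Itga4, whose own profile had an RMS of 0.39, they were Arvcf (0.14) and Cerkl (0.14), the opposite-strand neighbour whose exons overlap it. For Itgae, with an RMS of 0.92, they were Cd28 (0.28) and Spats2 (0.31). Cd28, a costimulatory receptor of T cells, was at 4.45 and 10.2 CPM with control guides and 3.24 and 3.80 with Stat5 guides in the early gate, and 10.3 and 8.32 against 17.5 and 12.9 in the late gate. For Itgax, with an RMS of 1.39, they were P2ry2 (0.23), a nucleotide receptor, and Tbxas1 (0.29), thromboxane synthase. Tbxas1 was at 7.65 to 9.66 CPM in the early libraries and at 1.19 to 2.58 in the late ones. P2ry2 and Itgax both lie on chromosome 7.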

How the data were processed

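The members and the gene lists were chosen with earlier results of these data known, and the motifs and the 250-base window were chosen after the data were seen. Groups and replicate numbers come from the sample titles. The authors' deposited counts are, per the file headers, unadjusted tags in the exons of a representative RefSeq transcript, taken with HOMER on mm10. The authors' deposited FPKM values come from the same program, per the file headers, scaled to transcript length and to the tags of the library. RSEM 1.2.25, STAR 2.4.0 and bcl2fastq 1.8.4 are listed in the submitters' processing notes.

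From the counts, edgeR 4.0.16 (R 4.3.3) kept 13775 of 24506 genes with filterByExpr, scaled the 8 libraries by TMM and fitted 1 mean per group to all of them, with 4 residual degrees of freedom. The quasi-likelihood F-test was two-sided, and p-values were adjusted over all tested genes in each of 5 comparisons at 0.05. The SE of a log2 fold change is its size over the square root of F. CPM are counts scaled by library size and TMM factor. All 10 chains passed the filter. FPKM served for levels between genes and for ratios.

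Replicate numbers recur in all groups. Across genes, the replicate 1 deviations of any 2 groups correlated (6 coefficients, 0.421 to 0.578), so the numbers pair the libraries, and the replicate number was also fitted as a block. Replicates differed far beyond counting error (chi-square per degree of freedom 23.1 to 63.0). Whether replicates were separate cultures or animals is not given in the labels, so the p-values reflect the spread between these libraries, which may be technical.

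The fit was checked on simulated counts. These were drawn for each library on its own, with no effect of the replicate number, so the check does not cover libraries paired by that number. In the simulated counts the share of false calls was above the limit first set for the difference of effects. That limit was then replaced by limits on the p-values of unchanged genes and on recovery. Alternatives were the block, size factors by relative log expression, other filters on low counts (none, or a CPM of at least 5 in 2 libraries), DESeq2 1.42.0, limma 3.58.1 on log2(FPKM + 1) and log2(FPKM + 0.1), and leaving out each library. The named genes are all 10 chains, members of the fixed lists past the threshold (at most 6 for each list and comparison) and the 2 genes most like each called chain. Other list members, markers and targeted genes are named where their level or blocked call is given. Upstream sequences are RefSeq's on GRCm38.p6 and matched 6 of 10 chains.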

Additional observations from a re-analysis of the deposited data

How the results depend on the processing

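Counts of genes called moved by over 1.5 times under several settings, while most directions held. With the replicate block, the genes called rose to 321 between guides in the early gate, 1132 in the late gate, 1507 between gates in control and 3144 between gates in sgStat5, and the integrin chains called to 1, 2, 2 and 4. DESeq2 called 248, 631, 588 and 1659 genes in these comparisons and 2 for the difference of the guide effects, with 1 chain early between guides and 1 between gates in control. With no filter on low counts, 114 genes were called early between guides, 83 between gates in control and 760 in sgStat5, with 1 chain in each of the first and second. A CPM of at least 5 in 2 libraries gave 231 genes between gates in sgStat5, and limma on log2(FPKM + 1) gave 0 between gates in control, against 2 in edgeR without the block. Leaving out each library in turn gave 0 to 30 genes early between guides, 63 to 151 late, 0 for the difference in every case, 0 to 32 between gates in control and 0 to 529 in sgStat5. The chains called then numbered 0, 0 to 1, 0, 0 and 0 to 2.

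The paired fit, with the replicate number as a block, changed no other call of a chain than those given with it above. Directions that reversed were all of differences that passed in neither fit. The early guide effect on Itgal, 0.0014 as fitted, became -0.00048 with relative log expression factors, -0.021 with no filter, -0.0024 with the CPM filter and -0.00044 in DESeq2. That on Itgb3 became 0.017 with the block and 0.025 and 0.026 in limma at pseudocounts 1 and 0.1. The difference of effects of Itga2b became 0.22 and 0.46 in limma at these pseudocounts, and that of Itgax 0.011 with the CPM filter and 0.077 in limma at 0.1. Other signs turned only on leaving out a library, and the ranges over the 8 left-out libraries follow. The early guide effect ran over -0.095 to 0.10 for Itgal, -0.048 to 0.56 for Itgax and -0.36 to 0.45 for Itgb3. The late guide effect ran over -1.27 to 2.96 for Itga2b, -0.076 to 0.15 for Itgal, -0.20 to 0.97 for Itgax and -0.084 to 0.48 for Itgb3. The difference of effects ran over -1.54 to 2.69 for Itga2b, -0.076 to 0.15 for Itgal, -0.51 to 0.24 for Itgam, -0.49 to 0.68 for Itgax, -0.049 to 0.12 for Itgb2 and -0.28 to 0.53 for Itgb3. The gate difference in control ran over -0.036 to 0.19 for Itgal, -0.018 to 0.087 for Itgb1 and -0.30 to 0.52 for Itgb3, and in sgStat5 over -0.0075 to 0.19 for Itga4 and -0.015 to 0.54 for Itgb3. The cause was not tested. A lone library left in a group is assumed to vary like the other groups. Itgam had 43 to 170 reads per library, and how far depth limits its calls was not tested.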
